A study of Homo sapiens with 2 samples.

Results

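The miRNAs described here are the late-annotated ones, the mature miRNAs numbered from miR-1178 upwards. They were selected by name alone, as the probes with neither a precursor ending nor a star in their name, after 17 numbers that belong to other groups (mirtrons, tRNA fragments and known clusters) had been set aside. The selection held 104 of the 1329 probes and 104 of the 707 unstarred mature probes of the array, and ran up to miR-1915. They were compared with the 297 mature probes numbered under 500. miRNA numbers are given in order of discovery, so high numbers mark miRNAs that were registered late, in most cases from deep sequencing.

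Mature miRNAs are cut from hairpin precursors and guide the silencing complex to messenger RNAs through the seed, bases 2 to 8 counted from the 5′ end. The low-numbered miRNAs were mostly found by cloning, which favours abundant and conserved RNAs. Many late entries are restricted to primates or come from a single sequencing study, and some were later withdrawn or recognised as pieces of other small RNAs, such as snoRNAs and rRNAs.

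RNA came from MKN1, an established human gastric cancer cell line, kept for 24 h under normoxia or under hypoxia (1% O2), with 1 array per condition. Biotin-labeled total RNA was measured on a human miRNA array of GenoSensor, whose probes follow miRBase v13. Signals are linear values that the authors normalized on global signal intensity. The lowest signal listed was 20, and all other probes were listed at 0. With 1 array per condition there was no replicate error and no test between conditions, so each fold change compares 2 arrays. Signals of different probes also depend on the probe, so a brighter probe is not shown to stand for a more abundant miRNA. Of the 7 epithelial markers examined, such as miR-141 (1203 under normoxia and 856 under hypoxia), 7 had a signal on both arrays. Of the 4 markers of gastrointestinal epithelium, 3 had a signal under normoxia and 4 under hypoxia. The highest was miR-192 (386 and 283), and miR-375 had 0 and 70.7. Markers of other tissues had signals too: 3 of 4 blood markers on both arrays (miR-150 the highest with 666 and 903, and miR-451 of red blood cells at 0), 4 of 4 muscle markers (summed signals of 426 and 856), both smooth muscle and fibroblast markers (summed signals of 1276 and 1571), miR-9 of neurons (952 and 665, with miR-124 at 0 and 31.3) and miR-122 of liver (1171 and 1720). The part of other tissues or of the probes in these signals was not tested.

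Sequences were taken from RefSeq (GRCh38.p14), where 51 of the 104 members were found under exactly the name used on the array. Because this is 49.0% of the members, no comparison of base composition or length over the members was made. Shown first are the mature sequences of the members whose signals differed by over 2-fold between the arrays, with the seed in capitals.
miR-1255a: aGGAUGAGcaaagaaaguagauu
miR-1257: aGUGAAUGauggguucugacc
miR-1256: aGGCAUUGacuucucacuagcu
miR-1265: cAGGAUGUggucaaguguuguu
miR-1913: uCUGCCCCcuccgcugcugcca
miR-1248: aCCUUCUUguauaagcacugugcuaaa

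In GRCh38.p14, miR-1255a lies at chr4:101330365-101330387 on the minus strand, within the span of PPP3CA, which encodes the catalytic subunit of the phosphatase calcineurin. miR-1257 lies at chr20:61953621-61953641 on the minus strand, and miR-1265 at chr10:14436589-14436610 on the plus strand, neither within a named protein-coding gene. miR-1256 lies at chr1:20988377-20988398 on the minus strand within EIF4G3, a translation initiation factor gene. miR-1913 lies at chr6:166509364-166509385 on the minus strand within RPS6KA2, which encodes a ribosomal S6 kinase. miR-1248 lies at chr3:186786675-186786701 on the plus strand within EIF4A2, the gene of an RNA helicase of translation initiation, where the snoRNA SNORA81 overlaps it. Among the 51 matched members no seed occurred in 2 members, and none was found among the 87 of 297 probes numbered under 500 that could be matched by exact name. The probe named miR-26a is not among these 87, and its RefSeq form shares a seed with miR-1297, as shown further on.

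Late-annotated miRNAs were listed with a signal less often than low-numbered ones, and those with a signal on both arrays had a similar median signal. Under normoxia 51 of 104 members (49.0%) had a signal, against 232 of 297 probes numbered under 500 (78.1%). Under hypoxia the counts were 61 of 104 (58.7%) and 257 of 297 (86.5%). The detection mark that the authors deposited with each probe was given to 52 of the 104 members. Neither signal was listed for 43 members (41.3%) and for 40 low-numbered probes (13.5%). With a minimum signal of 100, 40 members (38.5%) and 200 low-numbered probes (67.3%) remained under normoxia, and 44 (42.3%) and 208 (70.0%) under hypoxia. These shares describe 2 lists of probes on the same 2 arrays and were not tested. The members were close to the 279 mature probes numbered 500 to 1177, of which 45.9% had a signal under normoxia and 55.9% under hypoxia. Among all 707 mature probes the shares were 60.5% and 69.6%. For all 1329 probes, with precursor and starred ones included, they were 50.04% and 62.98%. The members were thus near all probes, and the low-numbered probes lay above each of these groups. The lower share is therefore described only relative to the low-numbered and to all mature probes.

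**Figure D1:**
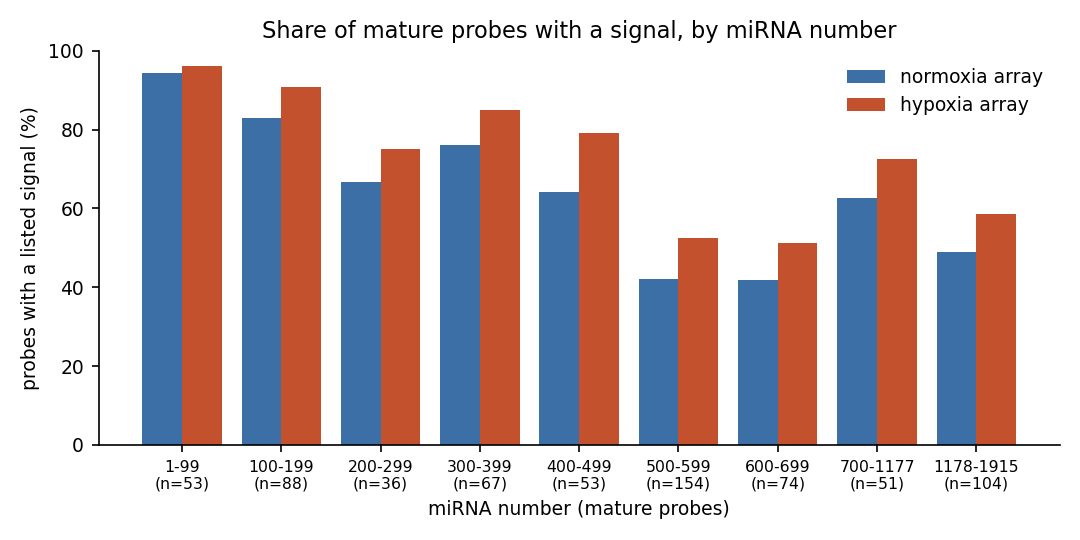
Percentage of mature probes with a listed signal (y axis) on the normoxia array (blue) and the hypoxia array (orange) for classes of miRNA number (x axis, n probes in each). The share was 94.3% for numbers up to 99 and 49.0% for the late-annotated miRNAs under normoxia.

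Among probes with a signal on both arrays, the members had a median near that of the low-numbered probes despite their lower share with a signal. The median signal of the 51 members was 665 under normoxia and 581 under hypoxia. The 232 low-numbered probes had medians of 659 and 615, while the 128 probes numbered 500 to 1177 had 235 and 301. In the other number classes the median under normoxia was highest, at 3652, for numbers up to 99 (94.3% with a signal). It was 207 for the class of 53 probes starting at 400 (64.2%) and 181 for the class of 154 starting at 500 (42.2%). Among the classes with lower shares brightness did not follow the share. The class starting at 600 had 279 (41.9%) and the class starting at 700 had 237 (62.7%). The middle 50% of the members ran from 151 to 1639 under normoxia, and that of the low-numbered probes from 171 to 2248. At least 1000 was reached by 22 of the 104 members under normoxia (21.2%) and 23 under hypoxia (22.1%). Of all 297 low-numbered probes 31.3% and 29.6% reached it, and of all 707 mature probes 21.8% and 21.6%. The 104 members thus held 43 with no listed signal, 51 with a median near that of the low-numbered miRNAs, and 10 with a signal under hypoxia only, whose median was 30.7. Their signals made up 14.6% of the summed signal of all mature probes under normoxia and 15.4% under hypoxia, with 104 of the 707 mature probes. The 297 low-numbered probes made up 67.9% and 61.7%. Much of the members' sum, 137831 under normoxia and 124175 under hypoxia, came from 2 probes. These were miR-1259 (35695 and 32088) and miR-1826 (21650 and 22834).

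The brightest member was miR-1259, with 35695 under normoxia and 32088 under hypoxia, the 5th highest of all mature probes on both arrays. miR-1826, whose sequence is part of the 5.8S ribosomal RNA, had 21650 and 22834 and ranked 7th on both arrays. Both entries differed little between the arrays, by log2 fold changes of -0.15 and 0.077. miR-1260 had 12038 and 6613, a 1.82-fold lower signal on the hypoxia array. miR-1282, whose gene lies within SERF2, had 9957 and 5839 (1.71-fold lower). miR-1254 had 8803 and 5146 (1.71-fold lower). The last 3 were all lower under hypoxia, by similar folds. For miR-1259, miR-1826, miR-1260 and miR-1254 no gene symbol of exactly the same number was found in RefSeq. Symbols with a letter added after the number were not searched for these members, so a gene under such a symbol would be missed.

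The other members among the 10 with the highest mean of both signals differed by less than miR-1260, miR-1282 and miR-1254. By the normoxia signal alone miR-1207-5p, described with its locus, would take the place of miR-1300. miR-1468, a miRNA gene on chromosome X, had 6158 under normoxia and 6050 under hypoxia. miR-1250, within the kinase gene AATK, had 4953 and 3876. miR-1306 had 3612 and 3785, and its gene overlaps DGCR8, which encodes the RNA-binding partner of Drosha in precursor cutting. miR-1300, for which no gene symbol of exactly that number was found in RefSeq either, had 3187 and 3901. miR-1293, within LIMA1, had 3381 and 3387. miR-1287, chosen for mention after its values were seen, had 2808 and 2804, so that the last 2 had nearly the same signal on both arrays.

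**Figure D2:**
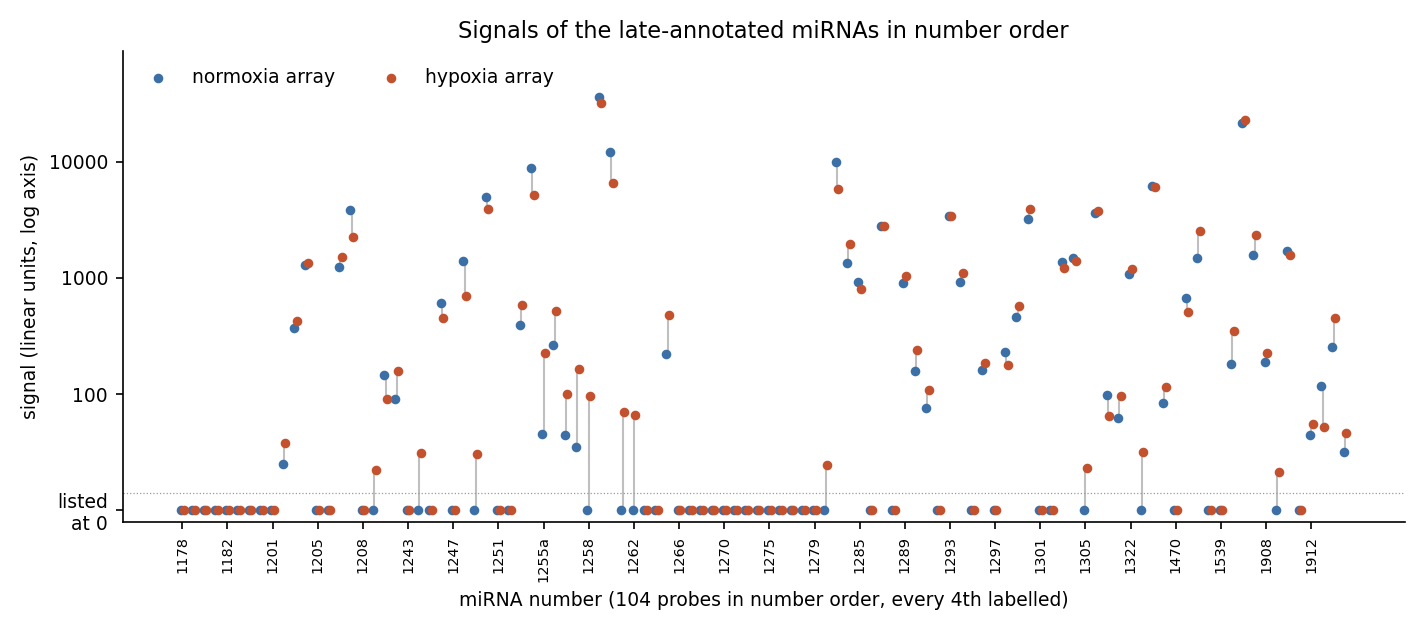
Signals (y axis, log scale) of all 104 late-annotated miRNAs in number order (x axis) on the normoxia array (blue) and the hypoxia array (orange), with probes listed at 0 below the dotted line. A run with almost no signal lies between miR-1263 and miR-1281, where 1 of 17 members had a signal under normoxia.

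In the fold changes, 32 of the 51 members had the higher signal on the hypoxia array and 19 on the normoxia array, and their log2 fold changes had a median of 0.21. Over all 663 probes with a signal on both arrays 56.3% were higher, and the median was 0.14. Over 2-fold higher were 4 members, 7.84% of the 51, where the array as a whole had 9.65%. Over 2-fold lower were 2 members, 3.92%, where the array had 2.11%. The members' counts over 2-fold were thus near those of all probes. The low-numbered probes had a median log2 fold change of -0.16, with 89 higher and 143 lower, and the probes numbered 500 to 1177 had 0.39. No replicate error is available against which these medians could be set.

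miR-1255a differed most among the members, at 45.3 on the normoxia array and 224 on the hypoxia array (4.94-fold higher). miR-1257 had 35.3 and 165 (4.67-fold higher). Both had low signals under normoxia, near the bottom of the listed range, and both stayed over 2-fold higher in each of the 8 settings (scalings and pseudocounts, the main one included) applied to single members, with log2 fold changes from 1.52 to 2.86 and from 1.33 to 2.78. miR-1256 had 44.3 and 100.3 (2.26-fold higher), and its log2 fold change of 1.18 was 0.67 with 50 added to each signal. miR-1265 had 219 and 480 (2.19-fold higher), with a log2 fold change of 1.13 that was 0.99 after median centring. The last 2 were over 2-fold in 4 of the 8 settings each.

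miR-1255b, the paralog of miR-1255a, lay just below the threshold with 262 under normoxia and 523 under hypoxia (1.995-fold). Its RefSeq form miR-1255b-5p has the seed of miR-1255a, and the sequences are shown because they share a run of 17 bases, bases 2 to 18 of each.
miR-1255a: aGGAUGAGcaaagaaaguagauu
miR-1255b-5p: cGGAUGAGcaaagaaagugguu
From the 5′ end they differ by A1C, A19G and A21U, with the base of miR-1255a first. The sources used here do not say which arm of the miR-1255b hairpin the array probe measures. miR-1825 (180 and 351, within POFUT1), miR-1914 (256 and 449, within UCKL1), miR-1233 (90.3 and 159, with genes in GOLGA8A and GOLGA8B) and miR-1537 (1484 and 2549, within LYST) were higher by 1.95-, 1.75-, 1.76- and 1.72-fold. Over 1.5-fold higher were 12 members (23.5%) and over 1.5-fold lower 8 (15.7%), where all probes had 23.8% and 12.5% and the low-numbered probes 13.4% and 17.7%.

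In the other direction, miR-1913 had 118 on the normoxia array and 52.3 on the hypoxia array (2.26-fold lower), and miR-1248 had 1403 and 696 (2.01-fold lower). miR-1248 lay just over the threshold, and its log2 fold change of -1.01 ranged from -1.15 after median centring to -0.46 after 75th percentile scaling, over 2-fold in 4 of 8 settings. That of miR-1913, -1.18, ranged from -1.60 after quantile normalization to -0.62 after 75th percentile scaling. Below 2-fold, miR-1231, within NAV1, had 145 and 91.3 (1.58-fold lower), and miR-1307, within ATP5MK, had 97.3 and 64.7 (1.51-fold lower).

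**Figure D3:**
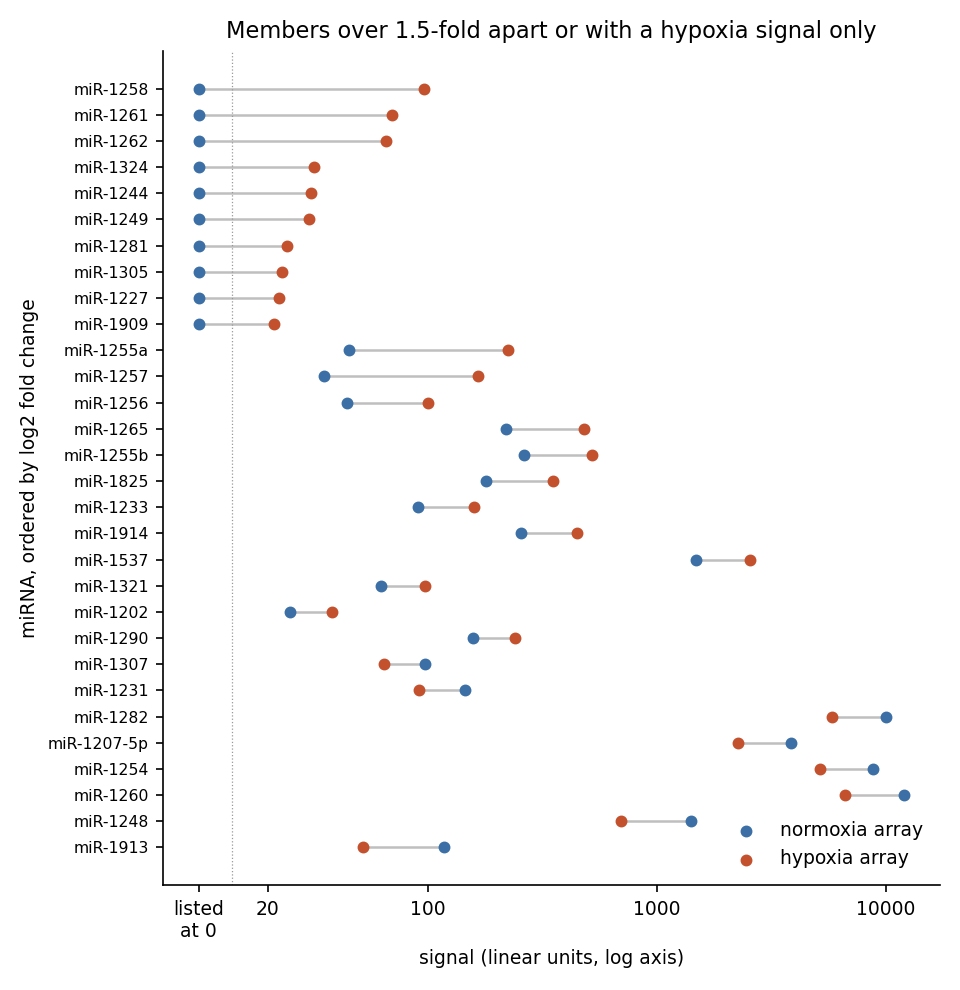
Signals (x axis, log scale) on the normoxia array (blue) and the hypoxia array (orange) of the members over 1.5-fold apart and of those listed at 0 under normoxia with a signal under hypoxia (y axis, ordered by log2 fold change). miR-1255a runs from 45.3 to 224 and miR-1913 from 118 to 52.3.

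Signals under hypoxia only were listed for 10 members, and under normoxia only for none. This was 18.9% of the 53 members at 0 under normoxia, against 38.5% of the low-numbered probes at 0 and 26.2% of all probes at 0. miR-1258, a miRNA described as a repressor of heparanase in breast cancer, had no signal under normoxia and 96 under hypoxia. miR-1261 had 70 and miR-1262, within WLS, had 66. The other 7, miR-1324, miR-1244, miR-1249, miR-1281, miR-1305, miR-1227 and miR-1909, had signals between 21.3 and 32, close to the lowest listed signal. All 10 lack the authors' detection mark. No fold change was calculated against a signal of 0. The sequences of the brightest 3 are shown, with the seed in capitals.
miR-1258: aGUUAGGAuuaggucguggaa
miR-1261: aUGGAUAAggcuuuggcuu
miR-1262: aUGGGUGAauuuguagaaggau

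The members over 2-fold higher lay close together in number, while miR-1913 and miR-1248, over 2-fold lower, lay outside their range. Between miR-1253 and miR-1265, a range chosen after its values were seen, lay all 4 members over 2-fold higher and the 3 brightest signals under hypoxia only. Of the 14 members in this range, 12 had a signal under hypoxia and 9 under normoxia. Of these 9, 6 were higher, miR-1253 (393 and 581), miR-1255a, miR-1255b, miR-1256, miR-1257 and miR-1265, and 3 were lower, the bright miR-1254, miR-1259 and miR-1260. miR-1263 and miR-1264 had no signal. In a run that overlaps the end of this range, from miR-1263 to miR-1281, 1 of 17 members had a signal under normoxia, miR-1265 already counted above, and 2 had one under hypoxia, miR-1265 and miR-1281. From miR-1282 to miR-1307, 17 of 25 members had a signal under normoxia and none was over 2-fold apart.

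Numbers in this region follow the sequence. In RefSeq, the 33 matched members from miR-1243 to miR-1305 were in alphabetical order of their mature sequences at 32 of 32 steps, so members with neighbouring numbers begin alike. miR-1253, the first of the range above, and miR-1284, from the bright members after the dark run, are shown to add to the sequences above, with the seed in capitals.
miR-1253: aGAGAAGAagaucagccugca
miR-1284: uCUAUACAgacccuggcuuuuc
miR-1253, miR-1255a, miR-1256, miR-1257 and miR-1258 all begin with AG, miR-1261 and miR-1262 with AUGG, and miR-1282 and miR-1284 with UC. Each of these named members had a signal under hypoxia. The first bases of members without a signal were not compared with theirs, so the shared beginnings are not shown to go with a signal. The sources used here do not give the probes' places on the array, and the part of position or of sequence in these runs was not tested.

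Fold changes went with brightness in the members as on the whole array. Across the 51 members the correlation of log2 fold change with mean log2 signal was -0.42, against -0.36 across the 232 low-numbered probes and -0.33 across all 663 probes. Probes are not independent replicates and share both arrays. The 13 members with a mean log2 signal under 7 had a median log2 fold change of 0.53, and the 12 above 11 had -0.090. At similar brightness the members stood above the low-numbered probes, whose medians were 0.25 in the dim class and -0.37 in the bright class. For mean log2 signals from 9 to 11 the median was 0.10 over 16 members and -0.27 over 72 low-numbered probes. Over all probes the medians of the dim and bright classes were 0.38 and -0.22.

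**Figure D4:**
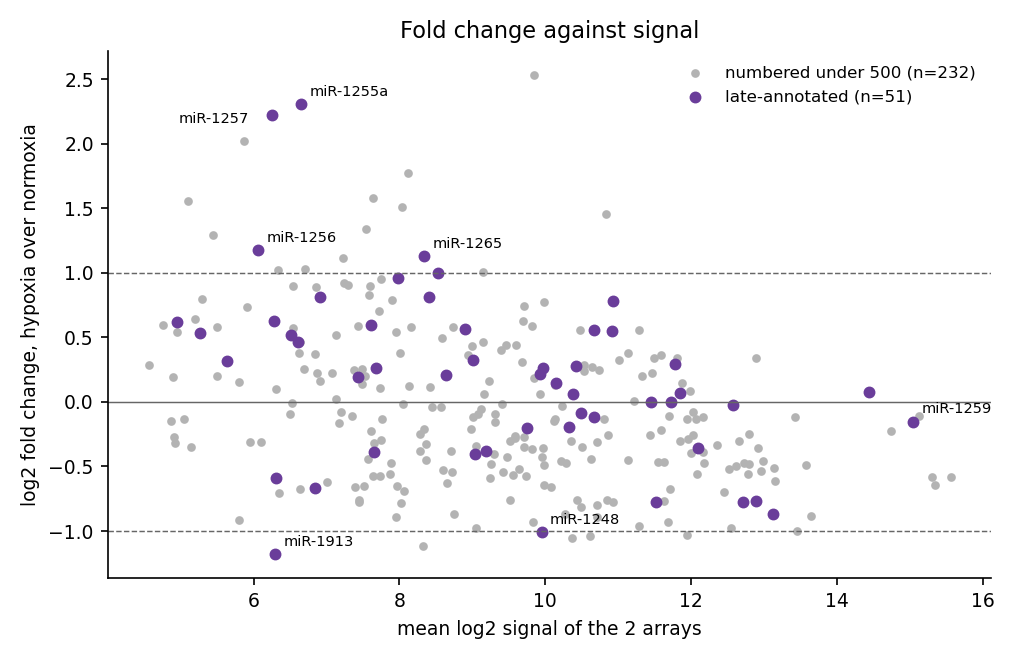
Log2 fold change of hypoxia over normoxia (y axis) against mean log2 signal of the 2 arrays (x axis) for late-annotated miRNAs (purple, 51) and mature miRNAs numbered under 500 (grey, 232), with dashed lines at 2-fold. miR-1255a and miR-1257 stand apart among the dim members, and the 12 bright members have a median of -0.090.

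The median of the members was 0.37 above that of the low-numbered probes on the log2 scale. Scalings that move every probe alike leave this difference as it is. Where the setting could change it, it was 0.30 after quantile normalization, 0.33 after the lowess correction for brightness, 0.35 with 16 and 0.29 with 50 added, 0.40 with a minimum of 100 and 0.37 with zeros read as 20. The medians themselves move with the scaling, that of the members from 0.072 after median centring to 0.76 after 75th percentile scaling, and that of the low-numbered probes from -0.29 to 0.40. The members were higher relative to the low-numbered probes, lower relative to the probes numbered 500 to 1177 (0.39), and near all probes (0.14). None of these differences was tested.

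**Figure D5:**
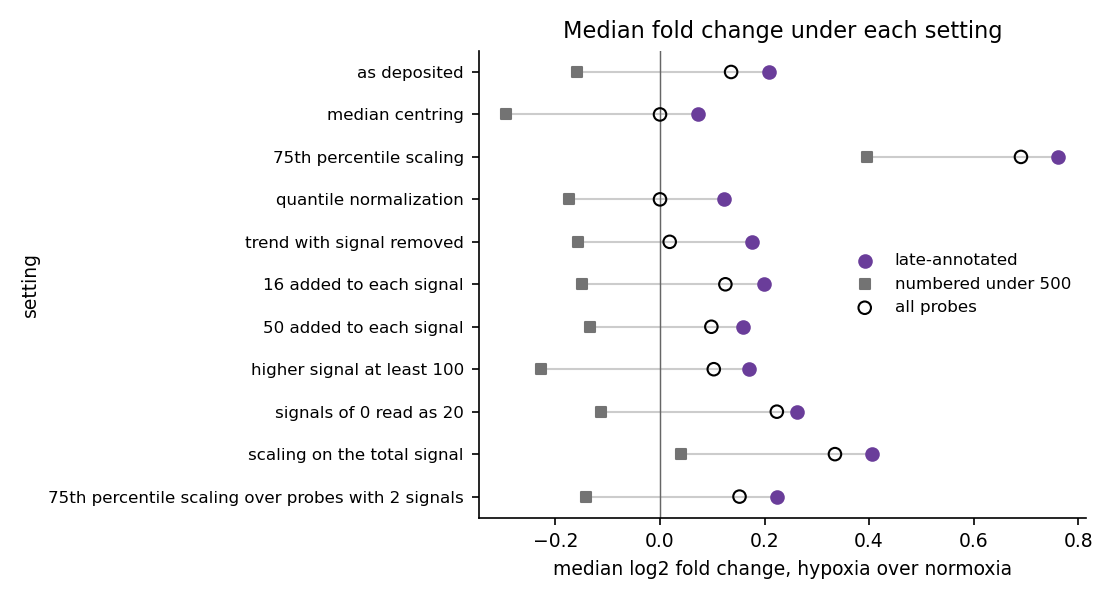
Median log2 fold change (x axis) of late-annotated miRNAs (purple), mature miRNAs numbered under 500 (grey squares) and all probes with a signal (open circles) under each setting (y axis). Scalings that move every probe alike shift all 3 medians together, and in the others the late-annotated median lies 0.29 to 0.40 above the low-numbered one.

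By genomic place, 93 of the 104 members had a miRNA gene in RefSeq under a symbol of exactly the same number. For probe names without a letter, symbols with an added letter were not searched, so genes under such symbols are not counted here. Of the 93 members, 67 lay within the span of a protein-coding gene, and 33 of the 67 (49.3%) had a signal under normoxia. Of the 26 outside such spans 13 had one. The median log2 fold change was 0.21 within and 0.33 outside, over 33 and 13 members. Only 7 members had more than 1 gene found in this way, with miR-1302, at 0 on both arrays, the one with the most.

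Several groups of members share a locus or origin. Within or next to PVT1, a long noncoding RNA gene beside the MYC oncogene, 3 of 6 probes had signals. miR-1207-5p was 1.71-fold lower under hypoxia, at 3839 and 2249. miR-1207-3p, from the other arm of the same hairpin, had 1242 and 1504 (1.21-fold higher), and miR-1204 had 1356 under hypoxia with a log2 fold change of 0.059. miR-1205, miR-1206 and miR-1208 were listed at 0 on both arrays, so signals did not go together across the locus, nor did the direction on the arms of miR-1207.

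Within HTR2C, the gene of a serotonin receptor of the brain, 2 of 4 probes had signals. miR-1298 had 230 under normoxia and 176 under hypoxia, and miR-1912 had 44.7 and 55.7. miR-1264 and miR-1911 were listed at 0 on both arrays.

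Of the entries that overlap other RNAs, 5 of the 10 listed were members, and 4 had signals. miR-1248, part of SNORA81, was 2.01-fold lower, as given above. miR-1291, which overlaps a snoRNA gene (SNORA2C in RefSeq) within KANSL2, had 76 and 109. miR-1246 had 603 and 456, and miR-1201 was listed at 0 on both arrays. With miR-1826 the median log2 fold change of these 4 was -0.16, and 2 were higher and 2 lower. Of the entries derived from repeats such as Alu, miR-1285 had 922 and 804, and miR-1268, miR-1273 and miR-1302 were listed at 0.

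Of 8 members studied in tumours, 4 had signals on both arrays, 2 higher and 2 lower with a median of -0.10, and miR-1258 had a signal under hypoxia only. miR-1290 had 158 under normoxia and 239 under hypoxia (1.51-fold higher). miR-1246 had 603 and 456 (1.32-fold lower). Both have been described in lung and other tumours. Their sequences are shown because they share 12 bases, in capitals, at bases 3 to 14 of miR-1246 and 1 to 12 of miR-1290.
miR-1246: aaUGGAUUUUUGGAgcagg
miR-1290: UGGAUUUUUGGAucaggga
The shared run is offset, so the seeds differ, and the signals of the pair went in opposite directions. miR-1296, within JMJD1C, had 161 and 184. miR-1271 was listed at 0 on both arrays. So was miR-1301, within DNMT3A, although the deposited table marks it as detected, the only member so marked with a signal of 0.

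Some members resemble low-numbered families. miR-1297 has the seed of miR-26a-5p, and both begin with the same 10 bases. miR-1827 resembles let-7, a family of abundant miRNAs that restrain growth genes, and is closest to let-7f-5p among the 8 let-7 sequences compared. The sequences are shown with the seed in capitals.
miR-1297: uUCAAGUAauucaggug
miR-26a-5p: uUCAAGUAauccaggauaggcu
miR-1827: uGAGGCAGuagauugaau
let-7f-5p: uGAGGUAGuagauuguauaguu
From the 5′ end miR-1297 differs from miR-26a-5p by U11C, U16A and G17U over its 17 bases, with the base of miR-1297 first. miR-1297 was listed at 0 on both arrays, whereas the probe named miR-26a had 8404 under normoxia and 4281 under hypoxia. Over the 18 bases of miR-1827, let-7f-5p differs by C6U and A16U, the first of them in the seed. miR-1827 had 1588 under normoxia and 2325 under hypoxia (1.46-fold higher), and the probe named let-7f had 6354 and 7717 (1.21-fold higher). Of the 8 let-7 probes 6 were higher, by up to 1.22-fold. How far the probes of such pairs take up RNA of each other was not tested.

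Of the remaining members, the GC-rich miR-1469 (83.3 and 115, within NR2F2), miR-1471 (665 and 510), miR-1203 (372 and 429, within SKAP1) and miR-1202 (25 and 38.3) had signals on both arrays. In miR-1469, 90.9% of the bases are G or C. miR-1275, miR-1181 and miR-1470 were listed at 0 on both arrays. miR-1908, within FADS1 of fatty acid desaturation, had 187 and 225, and miR-1910 had 1689 and 1561. Of the 11 members from miR-1825 to miR-1915, the last to be registered, 9 had a signal under normoxia and 10 under hypoxia, a share of 81.8% and 90.9%. From miR-1178 to miR-1208 it was 5 of 17 on both arrays (29.4%). Shares with a signal thus differed between these small ranges of the members, and this difference was not tested.

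At the lower edge of the selection, miR-1178 was listed at 0 on both arrays, and so was miR-944, the highest unstarred mature number below it. The 19 probes of the numbers set aside had a signal in 9 cases under normoxia (47.4%). Their largest fold was that of miR-1234, with 23 and 186, the normoxia value lying close to the lowest listed signal. The largest difference in signal was that of miR-1308, with 12338 and 4424 (2.79-fold lower).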

How the data were processed

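The deposited signal intensities were measured on 2 arrays of MKN1 RNA, 1 per condition. The authors read the spot signals with GeneSpring GX (its version is not stated in the sources used) and normalized them on global signal intensity. Both deposited tables held the same intensity values for 1329 of 1329 probes. The sources used here do not say what a signal of 0 means. The authors also deposited a ratio, a p-value and a detection mark per probe. The ratio and p-value hold their own comparison and were not used.

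For probes with a signal on both arrays the hypoxia signal was divided by the normoxia signal, with no pseudocount, and 2-fold was the threshold, as in the methods of the study. No test was possible with 1 array per condition, and this number limits the precision. Named were the 10 brightest members, members over 2-fold, the 5 brightest with a signal on 1 array only, members of lists set by locus, origin or tumour studies, members with the seed of a low-numbered miRNA, and members at the edges of the number and the threshold. Others were named after their values were seen. The members and lists were chosen with earlier results of these data known.

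Alternatives were quantile normalization, scaling on the median or 75th percentile, subtraction of a lowess curve (span 0.4), the second deposited table, pseudocounts of 16 and 50, a minimum of 100 for the higher signal, thresholds of 1.5-fold and 3-fold, and minimum signals of 50 and 100. The scalings were tried on simulated data for probes with a signal on both arrays. The 75th percentile and total signal scalings over all probes were therefore not covered by this trial. Sequences and genes were matched by name to RefSeq (GRCh38.p14). Calculations used pandas 2.3.3 and numpy 2.4.6 under Python 3.11.15, lowess from statsmodels 0.14.6, and matplotlib 3.10.9 for plots.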

Additional observations from a re-analysis of the deposited data

How the results depend on the processing

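No paired analysis was possible because each condition had a single array. The 4 members over 2-fold higher became 18 after 75th percentile scaling, 2 with 50 added, with the trend removed or after quantile normalization, and 12 and 2 at thresholds of 1.5-fold and 3-fold. Zeros read as 20 gave 7 and scaling on the total signal gave 8, both chosen after seeing the data. Of the 232 low-numbered probes 13 were over 2-fold higher, which became 43 after 75th percentile scaling and 20 with scaling on the total signal. It became 7 with 50 added, and 8 with the trend removed or after quantile normalization. At 1.5-fold and 3-fold it was 31 and 3, and zeros read as 20 gave 21 of 257. The count thus moved in both groups. The 2 members over 2-fold lower became 0 after 75th percentile scaling, with 16 or 50 added, at 3-fold or with scaling on the total signal, 8 at 1.5-fold, and 1 when the 75th percentile was taken over probes with 2 signals, a setting added after the data were seen. The median log2 fold change of 0.21 became 0.072 after median centring, 0.76 after 75th percentile scaling, 0.18 with the trend removed, 0.12 after quantile normalization, 0.20 with 16 and 0.16 with 50 added, 0.17 with a minimum of 100, 0.26 with zeros read as 20, 0.41 with scaling on the total signal and 0.22 with the percentile over probes with 2 signals. The planned 75th percentile was taken over 665 probes under normoxia and 837 under hypoxia, which by construction lifts all fold changes (median of all probes 0.69). Median centring, total signal scaling and the percentile over probes with 2 signals also move every log2 fold change by the same amount, by construction. With them the median of all probes was 0, 0.33 and 0.15. For quantile normalization and the removed trend the cause was not tested. The numbers of members with a signal, at minimum signals of 50 and 100, stayed within 1.5 times, and the median normoxia signal and the other deposited table gave the same values.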

Other observations

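The array held starred probes for 4 of the members, which belong in none of the comparisons above. The star marks the arm of a hairpin that was taken as the less abundant one when the miRNA was named. miR-1911* reached 264 on the normoxia array and 218 on the hypoxia array, while miR-1911 was listed at 0 on both arrays. miR-1909* had 140 and 97.7, while miR-1909 had no signal under normoxia and 21.3 under hypoxia. For miR-1914 and miR-1915 it was the other way round. miR-1914 had 256 and 449 and miR-1915 had 32 and 46.3, while miR-1914* and miR-1915* were listed at 0 on both arrays. Signals of different probes are not levels of the arms, and which arm was more abundant cannot be told from them.

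No precursor probe of the array had a number above 663, so the precursors of the late-annotated miRNAs were not measured here.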
